A study of Mus musculus with 36 samples.

Results

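A set of 10 circadian clock genes, called members below, were followed in 36 mouse brain samples: Per1, Per2, Per3, Cry1, Ciart, Arntl, Clock, Nr1d1, Nr1d2 and Dbp. They were taken by name from a table of 56980 genes, and all 10 were among the 25601 genes that had enough counts to be tested. The study gave Ndufs4 knockout (KO) mice and wild-type (WT) mice CP2 or vehicle by gavage on 3 days in a row and sequenced polyA RNA of the brain. Ndufs4 encodes a subunit of complex I of the mitochondrial respiratory chain, and CP2 is a small-molecule complex I inhibitor. The animals were 37 to 45 days old.

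Genotype, treatment and the letter F or M in the sample titles define 8 groups. The 4 groups with the letter F had 5 samples each. Of the groups with the letter M, both given CP2 had 5 samples and both given vehicle had 3. The labels do not say what the letters stand for, how the knockout allele was made, or at what clock hour tissue was taken beyond the end of the third day. The design text names hippocampus and cortex, and the sample labels name brain. Samples carry different title numbers, but no label says that each is a separate animal, so the p-values measure the spread between these samples, which may be technical.

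The circadian clock is a transcription loop of about a day that runs in most cells of the body. CLOCK and the protein of Arntl (BMAL1) bind E-box sequences and switch on the Per and Cry genes, whose products then block that same activation. In a second loop the nuclear receptors NR1D1 and NR1D2 (REV-ERB alpha and beta) repress Arntl, and outputs such as Dbp, an activator that binds D-box sequences, pass the rhythm to other genes. Ciart (Chrono) encodes a further repressor of CLOCK and BMAL1. In mouse brain outside the master clock of the suprachiasmatic nucleus, the levels of these genes also move with the time of day, and that hour is not given here.

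The promoters of 3 members that passed a test below are shown because they carry the letters that the loop is known to use. Sequences are from RefSeq on the build GRCm38.p6 and not on GRCm39, the build named in the submitters' processing notes, so the coordinates belong to GRCm38.p6 alone. Each is the 250 bases before the annotated start, 5′ to 3′ on the gene's strand, with motif letters in capitals. A table of promoters held 9 of the 10 members, all but Per2. Both strands were searched. The E-box was taken as CACGTG. The E′-box was taken as CACGTT, which reads AACGTG on the opposite strand. The D-box was taken as TTATGTAA or TTACGTAA. A match to one of these is never a match to another.
Cry1 (chr10:85185055-85185304, minus strand): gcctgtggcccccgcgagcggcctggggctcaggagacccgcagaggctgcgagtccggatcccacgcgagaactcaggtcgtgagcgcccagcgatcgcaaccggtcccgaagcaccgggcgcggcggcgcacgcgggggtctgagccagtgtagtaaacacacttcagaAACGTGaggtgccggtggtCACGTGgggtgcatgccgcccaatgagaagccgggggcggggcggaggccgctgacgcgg
Ciart (chr3:95882229-95882478, minus strand): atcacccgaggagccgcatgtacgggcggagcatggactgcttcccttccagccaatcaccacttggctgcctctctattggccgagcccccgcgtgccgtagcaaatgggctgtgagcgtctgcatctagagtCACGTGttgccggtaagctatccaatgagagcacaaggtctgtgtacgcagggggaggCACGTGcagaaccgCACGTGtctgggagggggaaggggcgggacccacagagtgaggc
Per3 (chr4:151044666-151044915, minus strand): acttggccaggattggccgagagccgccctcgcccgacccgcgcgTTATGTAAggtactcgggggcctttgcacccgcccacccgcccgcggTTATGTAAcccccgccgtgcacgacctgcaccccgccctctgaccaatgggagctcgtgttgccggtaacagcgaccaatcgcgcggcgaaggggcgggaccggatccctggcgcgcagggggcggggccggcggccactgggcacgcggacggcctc

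In Cry1 the E′-box began 79 bases and the E-box 60 bases before the start. The Ciart window held 3 E-boxes, at 116, 58 and 44 bases before the start. The Per3 window held no E-box and had 2 D-boxes, at 205 and 158 bases before the start. Among 32851 promoter windows of the same length, 6.02% held an E-box, 3.85% an E′-box and 0.931% a D-box. Among the others, the first start of Per1 had an E-box 166 bases upstream and Nr1d1 had an E′-box 28 bases upstream. Dbp, Arntl, Clock, Nr1d2 and the second start of Per1 had no E-box, E′-box or D-box in their windows. Such matches describe letters only.

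Depth was between 46124548 and 88559920 gene counts per sample. Levels below are CPM, that is counts scaled to a common library total after TMM normalisation, computed from the deposited counts. Ndufs4 itself was lower in every KO sample than in every WT sample of the same treatment and letter but was not absent: under vehicle in F its mean was 34.4 ± 2.84 CPM in KO and 53.4 ± 5.51 CPM in WT (SD, n = 5 each). The count sums reads over all of its exons, so reads from a part left in the allele cannot be told apart from intact transcript. These libraries stand apart. The KO vehicle F sample L246 had 644 CPM of Fos and 419 CPM of Npas4, both early genes of neuronal activity, where no other sample exceeded 73.2 and 24.2 CPM. Xist was between 439 and 798 CPM in the F samples and at most 0.833 CPM in the M samples other than L291. The KO CP2 M sample L266 differed most from its replicates, and the KO CP2 M sample L291 had 47.3 CPM of Xist. Results that rest on them are given without them below. The share of reads that fell outside annotated genes was 9.24% ± 2.56 (SD, n = 5) in KO vehicle F, 5.99% ± 0.740 (SD, n = 5) in WT vehicle F, 7.33% ± 1.40 (SD, n = 5) in KO CP2 M and 11.5% ± 1.64 (SD, n = 5) in WT CP2 M. It therefore moved with genotype in these groups. Summed markers of cortical projection neurons (6 of 6 detected) were between 201.03 and 475 CPM and those of hippocampal CA neurons (6 of 6) between 247 and 416 CPM in all samples. Markers of other regions were read too: suprachiasmatic and hypothalamic markers (9 of 9) summed to between 41.6 and 297 CPM and choroid plexus markers (5 of 5) to between 194 and 3455 CPM. In the former list Six6, Prok2 and Nms had medians of 0.245, 0.27 and 0.0658 CPM, each with 0 counts in some sample. Lhx1, Avp, Oxt, Hcrt, Pmch and Vip had higher medians, from 2.76 to 24.98 CPM. The sum therefore does not show that suprachiasmatic tissue was in every sample. The part of the markers of other regions in the results was not tested. In bulk tissue, fewer cells of a type and less RNA per cell cannot be told apart.

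Compared per kilobase of merged exons (RPKM, median over 36 samples), Nr1d1 had the highest level at 34.2, followed by Dbp at 23.5, Nr1d2 at 21.0 and Per1 at 16.8. Clock followed at 7.20, Cry1 at 5.80, Per2 at 5.21, Ciart at 4.46, Per3 at 4.28 and Arntl at 3.27. The ranges from the lower to the upper quartile overlapped between each gene and the next in the run from Clock to Per3, and between Dbp and Nr1d2, so those neighbours are not separated by more than the spread over samples. Nr1d1 stood above Dbp, and Arntl below Per3, without overlap of these ranges. Spread within a group differed by member: the coefficient of variation was 7.83% for Nr1d2 and 8.87% for Clock, and 20.8% for Per2, 21.9% for Per1 and 22.9% for Ciart. The member with the lowest count, Ciart, still had at least 378 counts in each sample. In the plot of levels by sample the wide groups of Per1, Per2 and Ciart can be seen beside the narrow ones of Nr1d2.

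**Figure D1:**
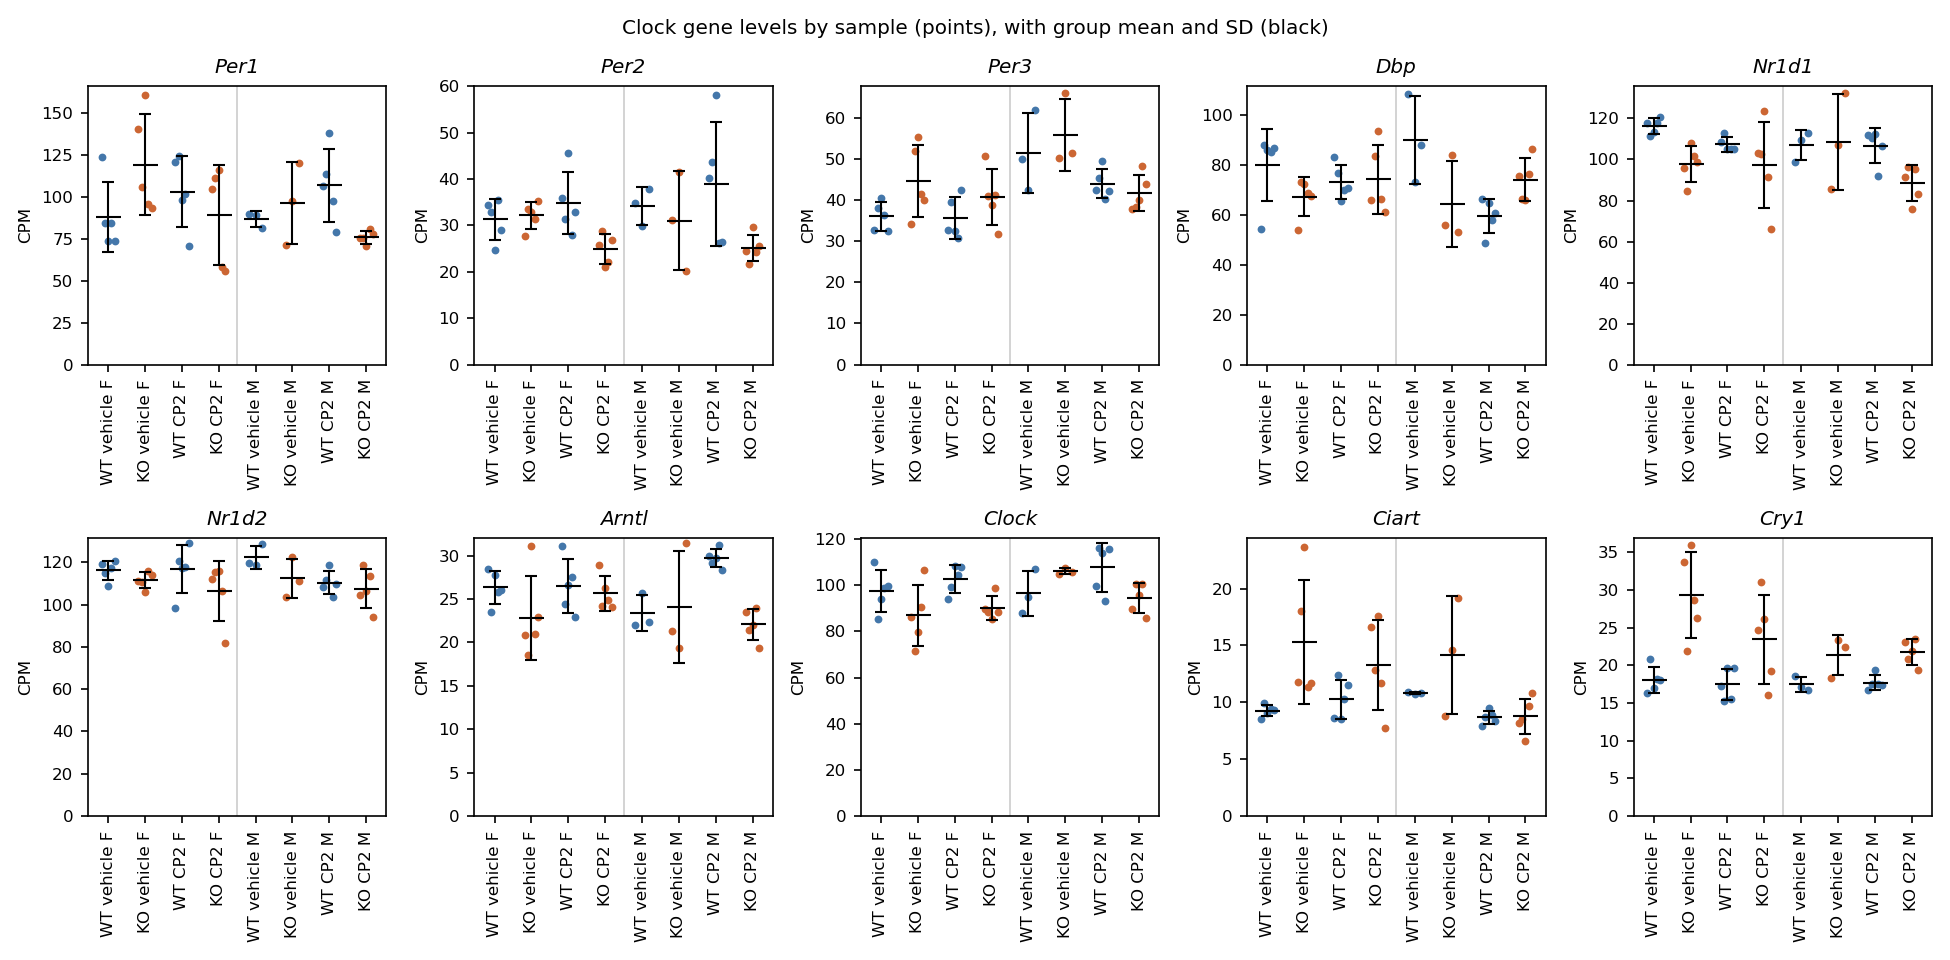
Level of each of the 10 clock genes in CPM (vertical axis, from 0) in every sample of the 8 groups; points are samples (blue WT, orange KO), black bars the group mean and SD, and the grey line parts F from M. Cry1 means are between 21.3 and 29.3 CPM in the 4 KO groups and between 17.5 and 18.1 CPM in the 4 WT groups.

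The first comparison asked how KO and WT brains differed without the inhibitor. Cry1, a core repressor, and Ciart were higher in KO, and Dbp was lower, when F and M were averaged with equal weight. Here and below, called means an adjusted p below 0.05 in edgeR's quasi-likelihood test with Benjamini-Hochberg adjustment over the 25601 genes. In this average 3 of 10 members were called, 2 higher and 1 lower, beside 6.67% of all genes tested. The median log2 fold change was -0.03 over the members and 0.02 over all genes tested. The other 7 members were not called. In the same average 2 of 3 red blood cell markers were called lower in KO. Their sums were 68.7 to 120 CPM in KO and 79.0 to 352 CPM in WT in F, and 36.5 to 80.8 CPM in KO and 106 to 592 CPM in WT in M. Their part in the results was not tested. Of 6 hippocampal CA markers 1 was called higher in KO in this average. The median log2 fold change of those 6 was -0.39 in F and 0.45 in M.

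Cry1 had 33.7, 21.8, 35.9, 28.6 and 26.3 CPM in the KO vehicle F samples and 16.3, 20.8, 17.0, 18.1 and 18.1 CPM in the WT vehicle F samples. Every KO sample of F was above every WT sample. With the letter M it had 18.3, 23.3 and 22.5 CPM in KO and 18.6, 17.2 and 16.7 CPM in WT, and here the groups overlapped through 1 KO sample. The average log2 fold change of Cry1 was 0.49 (SE 0.10, edgeR adjusted p = 0.00224). In F alone it was 0.70 (SE 0.12, adjusted p = 0.000856) and in M alone 0.29 (SE 0.16, adjusted p = 0.485). The F effect minus the M effect was 0.41 (SE 0.20, adjusted p = 0.597), so a difference between the letters was not shown. Without L246 the value in F was 0.65 (adjusted p = 0.0039). Cry1 was called in each of the 16 fits that left out 1 sample of the average, and with the outside-gene read share added to the model it was 0.46 (adjusted p = 0.0414).

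Ciart had 11.8, 17.997, 23.6, 11.3 and 11.7 CPM in KO vehicle F and 8.57, 9.93, 9.04, 9.44 and 9.37 CPM in WT vehicle F. All KO samples of F lay above all WT samples, with L279 and L281 far above the other 3. In M the KO samples had 8.79, 14.6 and 19.2 CPM, spread to both sides of the narrow WT values of 10.9, 10.7 and 10.8 CPM. Its average log2 fold change was 0.56 (SE 0.16, edgeR adjusted p = 0.0281), with 0.72 (SE 0.19, adjusted p = 0.0258) in F and 0.39 (SE 0.25, adjusted p = 0.564) in M. The call held in 10 of 16 fits without 1 sample (0.42 without L322), in F it held in 4 of 10 (0.52, adjusted p = 0.122, without L281), and with the outside-gene read share added to the model the average was 0.24 (adjusted p = 0.555).

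Dbp, the D-box output, had 53.7, 73.1, 72.3, 68.8 and 67.5 CPM in KO vehicle F and 54.1, 87.7, 86.0, 85.1 and 86.5 CPM in WT vehicle F. In each of these groups 1 sample (L246 in KO, L252 in WT) sat well below the other 4, which did not overlap between the genotypes. In M the values were 55.7, 83.9 and 53.0 CPM in KO and 108, 73.2 and 87.8 CPM in WT, with overlap. Dbp fell by 0.37 on the log2 scale in the average (SE 0.11, edgeR adjusted p = 0.045), while F alone gave -0.25 (SE 0.14) and M alone -0.48 (SE 0.18, adjusted p = 0.222), neither called. Its call held in 4 of 16 fits without 1 sample, and it was lost without L246 (-0.33, adjusted p = 0.0743).

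With F alone 2 members, Cry1 and Ciart, were called beside 4.96% of all genes. Nr1d1 was below every WT sample in each KO vehicle F sample, at 84.8 to 108 CPM against 112 to 121 CPM, but its log2 fold change of -0.25 (SE 0.10, edgeR adjusted p = 0.156) did not pass over all genes. In addition, 2 of 6 hippocampal CA markers were called lower in KO in this contrast, with summed levels of 273 to 336 CPM in KO and 287 to 366 CPM in WT. Their part in the results was not tested beyond a covariate, under which Ciart in F lost its call (0.66, adjusted p = 0.113) and Cry1 kept its own. With M alone, where each group had 3 samples, 0 of 10 members were called beside 0.516% of all genes. There 1 member, Dbp, had an unadjusted p under 0.05, and DESeq2 called 0. The activators Arntl and Clock were close to level in the average, at -0.08 (SE 0.09) and -0.02 (SE 0.07), as was Per2 at -0.05 (SE 0.14). These averages join opposite signs in F and M. Arntl had -0.20 (SE 0.11) in F and 0.04 (SE 0.14) in M, and Clock -0.17 (SE 0.08) and 0.14 (SE 0.10). Per2 had 0.04 (SE 0.18) in F and -0.14 (SE 0.23) in M. None of these was called.

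**Figure D2:**
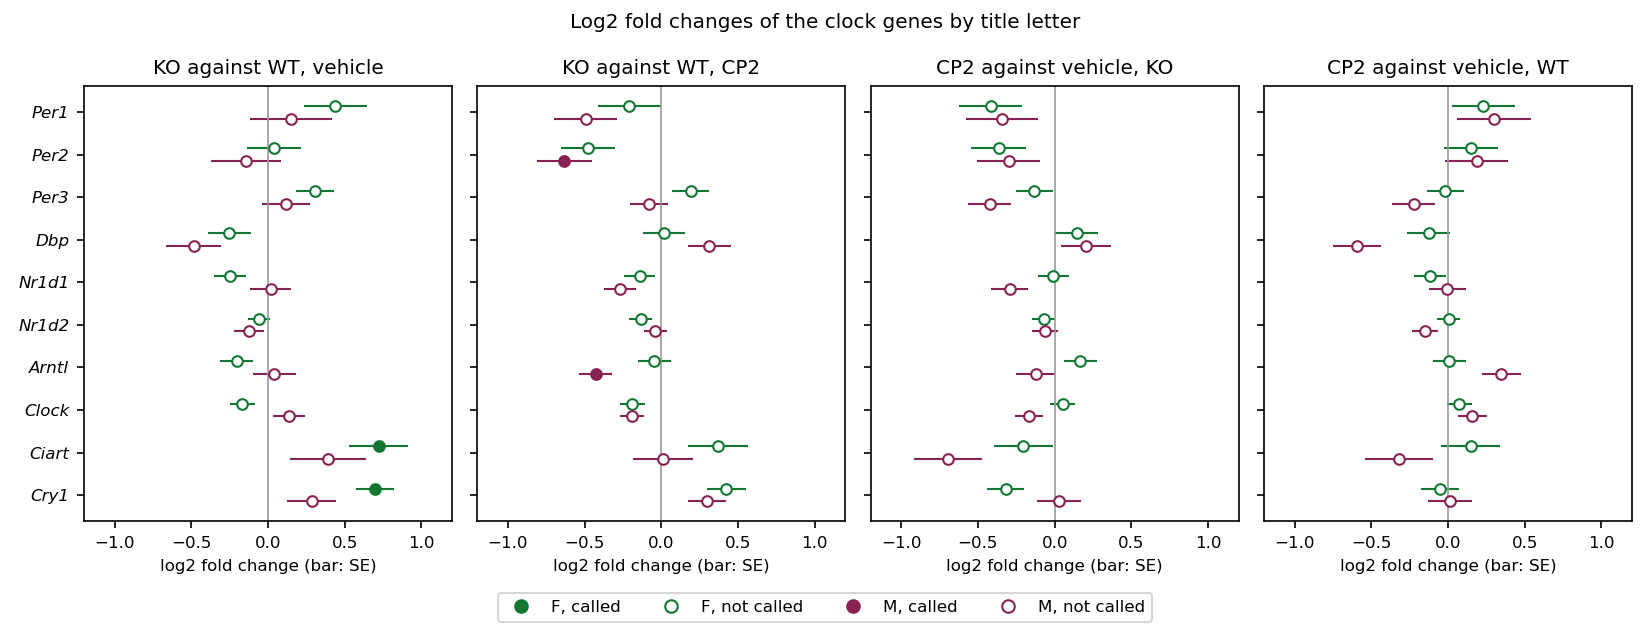
Log2 fold change (horizontal axis, bars are 1 SE) of each clock gene, with F in green and M in purple, for KO against WT under vehicle and under CP2 and for CP2 against vehicle in KO and in WT; filled points passed an adjusted p of 0.05. Filled points are Ciart (0.72) and Cry1 (0.70) in F under vehicle and Per2 (-0.63) and Arntl (-0.43) in M under CP2.

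The second comparison set KO against WT in animals given CP2. Per2, a core repressor, and the activators Arntl and Clock were lower in KO, and Cry1 was higher. In the average of F and M 4 of 10 members were called, 1 higher and 3 lower, beside 11.6% of all genes. The members' median was -0.14 and that of all genes 0.01. Here 2 of 3 cerebellum markers were called higher in KO in this average and in F, with sums of 16.1 to 192 CPM in KO and 14.4 to 26.99 CPM in WT in F, and of 25.8 to 30.9 CPM and 12.8 to 31.1 CPM in M. In the average 1 marker each of hippocampal CA neurons (of 6), astrocytes, oligodendrocytes and microglia (of 3 each) was called higher. There 1 each of cortical neurons (of 6) and of the hypothalamic list (of 9) was called lower. The part of all these markers in the results was not tested, beyond a score of the hippocampal CA markers as a covariate.

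Per2 had 25.8, 28.8, 21.0, 22.2 and 26.9 CPM in KO CP2 F and 35.97, 31.3, 45.6, 28.0 and 33.0 CPM in WT CP2 F. In M it had 24.4, 21.7, 29.6, 24.4 and 25.5 CPM in KO and 40.2, 43.7, 58.2, 26.2 and 26.5 CPM in WT. The KO samples were close together in both letters, while WT CP2 M split into 3 high and 2 low samples, the low ones within the KO range. Per2 fell by 0.56 in the average (SE 0.13, edgeR adjusted p = 0.00327), called in each of the 20 fits without 1 sample. In M it fell by 0.63 (SE 0.18, adjusted p = 0.0202), and in F the value was -0.48 (SE 0.18, adjusted p = 0.159). Without both L266 and L291 the average was -0.51 (adjusted p = 0.0184) and M alone was -0.55 (adjusted p = 0.134). The M call was also lost without L263, the highest WT sample (-0.44, adjusted p = 0.104), without L262, and without L291.

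Cry1 had 24.7, 31.1, 26.1, 16.1 and 19.2 CPM in KO CP2 F and 17.3, 15.3, 19.6, 15.5 and 19.6 CPM in WT CP2 F. In M it had 23.1, 20.9, 21.9, 23.5 and 19.4 CPM in KO and 16.7, 17.6, 19.4, 17.5 and 17.3 CPM in WT. In F, 3 KO samples were above all WT samples and the other 2 were within the WT range. In M the KO samples were the higher ones, and only the lowest of them was not above the highest WT sample. Its average log2 fold change was 0.36 (SE 0.09, edgeR adjusted p = 0.00474), called in each of the 20 fits without 1 sample. F alone (0.42, SE 0.12, adjusted p = 0.062) and M alone (0.30, SE 0.12, adjusted p = 0.128) were not called.

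Arntl, whose product pairs with CLOCK, had 23.5, 21.4, 22.0, 24.0 and 19.4 CPM in KO CP2 M and 30.0, 29.2, 29.8, 31.2 and 28.4 CPM in WT CP2 M. These groups did not overlap, and the WT values were close together (SD 1.05 CPM, n = 5). In M Arntl was lower in KO than in WT by 0.43 (SE 0.11, edgeR adjusted p = 0.00826), called in 10 of 10 fits without 1 sample. The vehicle M means were 24.0 ± 6.45 CPM in KO and 23.3 ± 2.06 CPM in WT (SD, n = 3 each). Both were nearer to KO CP2 M (22.1 CPM) than to WT CP2 M (29.7 CPM). In F under CP2, Arntl had 25.7 ± 2.00 CPM in KO against 26.5 ± 3.12 CPM in WT (SD, n = 5 each), a log2 fold change of -0.05 (SE 0.11). The average fell by 0.24 (SE 0.08, adjusted p = 0.0379), a call kept in 7 of 20 fits without 1 sample and lost without L266 and L291 together (adjusted p = 0.071). The difference between F and M in this contrast was not tested.

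Clock was lower by a similar small amount in both letters: 90.1 ± 5.17 CPM in KO against 103 ± 6.07 CPM in WT in F, and 94.4 ± 6.56 against 108 ± 10.6 CPM in M (SD, n = 5 each). The average fell by 0.19 (SE 0.06, edgeR adjusted p = 0.0224) and was called in 19 of 20 fits without 1 sample. Neither letter was called alone. Nr1d1, the repressor of Arntl, had -0.21 (SE 0.07, adjusted p = 0.0618), just outside the threshold. The other members were not called either: Per1 had -0.35 (SE 0.15, adjusted p = 0.122), Dbp 0.17 (SE 0.10) and Ciart 0.19 (SE 0.14), with Per3 and Nr1d2 within 0.09 of 0.

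In F alone 0 of 10 members were called beside 2% of all genes. There 3 members had an unadjusted p under 0.05, and DESeq2 called 1, Cry1 (0.44, adjusted p = 0.0247). In M alone 2 members, Per2 and Arntl, were called beside 9.99% of all genes. The share of reads outside genes was lower in KO than in WT there (7.33% against 11.5%), and with it as a covariate neither passed (Per2 -0.50, adjusted p = 0.272, and Arntl -0.36, adjusted p = 0.14). All 3 microglia markers were also called higher in KO CP2 M, with sums of 132 to 169 CPM against 94.8 to 130 CPM in WT CP2 M. There 1 of 3 astrocyte markers (sums of 3992 to 5051 CPM against 3309 to 4052 CPM), 1 of 3 oligodendrocyte markers (6235 to 11791 CPM against 6506 to 8457 CPM) and 1 of 6 hippocampal CA markers (309.9 to 386 CPM against 267.1 to 317 CPM) were called higher. Of 5 dentate gyrus markers 1 was called lower, with sums of 49.0 to 88.7 CPM against 83.2 to 110.2 CPM and a median log2 fold change of -0.68. The part of all these markers in the results was not tested, beyond the hippocampal CA score as a covariate.

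The third comparison asked what CP2 did within a genotype. In KO 0 of 10 members were called in the average (beside 3.91% of all genes), in F (0.0859%) or in M (5.1%). The number with an unadjusted p under 0.05 was 4, 2 and 3 in that order, and DESeq2 called 2, 0 and 2. The 2 that DESeq2 called were Per3 and Ciart in both cases. The members' median log2 fold change in the average was -0.15, and that of all genes was 0.00. In this average 3 of 3 microglia, 2 of 3 oligodendrocyte and 1 of 3 cerebellum markers were called higher with CP2, and their part in the values was not tested.

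Ciart in KO M went from 8.79, 14.6 and 19.2 CPM with vehicle to 8.15, 8.51, 6.64, 9.69 and 10.8 CPM with CP2, with overlap through 1 vehicle sample. The log2 fold change was -0.70 (SE 0.22, edgeR adjusted p = 0.0569) in M and -0.45 (SE 0.15, adjusted p = 0.0731) in the average. Per3 in KO M had 50.3, 66.0 and 51.4 CPM with vehicle and 37.8, 38.4, 40.0, 48.3 and 43.9 CPM with CP2, without overlap (-0.42, SE 0.14, adjusted p = 0.0665). Clock in KO M did not overlap either (-0.17, SE 0.09, edgeR adjusted p = 0.322). Per1, which had the widest KO vehicle F group at 141, 106, 161, 95.6 and 93.2 CPM, had 105, 112, 116, 58.3 and 55.9 CPM in KO CP2 F, where 2 samples lay far below the other 3. Its average log2 fold change was -0.38 (SE 0.16, adjusted p = 0.177).

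In WT 0 of 10 members were called for CP2 in the average, in F or in M, and the background was 0% of all genes in each of the 3. Unadjusted p-values under 0.05 were found for 1031, 679 and 777 genes, among them 2, 0 and 2 members. DESeq2 called 0 members in each. Dbp was the member with the smallest p, at 108, 73.2 and 87.8 CPM in WT vehicle M and 66.0, 48.7, 64.5, 57.7 and 60.8 CPM in WT CP2 M. These groups did not overlap, but the log2 fold change of -0.59 (SE 0.16) had an edgeR adjusted p of 1 over all genes. Arntl went the other way, from 22.0, 25.7 and 22.3 CPM to 30.0, 29.2, 29.8, 31.2 and 28.4 CPM (0.35, SE 0.13, adjusted p = 1), also without overlap. Nr1d2 and Ciart did not overlap in M either, and both were lower with CP2. The share of all genes without overlap was not counted for any comparison. In F Dbp had -0.13 (SE 0.14) and Arntl 0.01 (SE 0.11).

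Whether CP2 acted differently in KO and in WT was tested as an interaction. In it 0 of 10 members were called beside 0.715% of all genes. There were 3 at an unadjusted p under 0.05 and 1, Dbp, called by DESeq2. The interaction of Dbp was 0.53 (SE 0.15, edgeR adjusted p = 0.0803, and 0.0235 in DESeq2). It joins a log2 fold change for CP2 of 0.17 (SE 0.11) in KO and of -0.36 (SE 0.11) in WT. For Per1 the interaction was -0.65 (SE 0.22, adjusted p = 0.157) and for Per2 -0.50 (SE 0.19, adjusted p = 0.204). The KO against WT contrasts under vehicle and CP2 are linked to this test, since they use the same samples. So a member called under 1 treatment only, such as Per2, Clock or Arntl, was not shown to respond differently under the other.

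Samples with the letter M were set against those with F over both genotypes and treatments. Per3 was higher in M, the 1 member called of 10 beside 10.3% of all genes. Its group means were 36.1 and 44.7 CPM in WT and KO vehicle F against 51.5 and 55.9 CPM in the matching M groups, and 35.6 and 40.7 CPM in WT and KO CP2 F against 44.0 and 41.7 CPM in M. In each pair the M mean was the higher one. The log2 fold change was 0.29 (SE 0.07, edgeR adjusted p = 0.00291), called in each of the 36 fits without 1 sample. M samples also had more reads outside genes than F samples in both WT groups and in KO vehicle, and with that share as a covariate Per3 had 0.03 (adjusted p = 0.929). With the number in the sample title as a covariate it had 0.22 (adjusted p = 0.286). For the KO effect under vehicle, the F minus M difference called 0 of 10 members beside 0.102% of all genes, with 1 (Clock, -0.30, SE 0.13, adjusted p = 0.5) at an unadjusted p under 0.05. For the CP2 effect in KO it called 0 of 10 beside 0.691%, with 0 at an unadjusted p under 0.05. DESeq2 called 0 members in both.

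Because the hour of collection is not given, it was asked whether the members varied together between samples of the same group, as deviations of log2 CPM from the group mean in 36 samples. Of 45 pairs 3 passed an adjusted permutation p of 0.05 (100000 permutations within groups, two-sided). Per1 and Nr1d1, both switched on through E-boxes, had Pearson r = 0.62 and Spearman rho = 0.59 (permutation p = 0.00078 and 0.00106, adjusted 0.0334 and 0.0159), with 0.63 in the 20 F samples and 0.63 in the 16 M samples. Per3 and Ciart had r = 0.63 and rho = 0.62 (permutation p = 0.00168 and 0.00084, adjusted 0.0334 and 0.0159), with 0.78 in F and 0.31 in M. Nr1d2 and Clock had r = 0.41 and rho = 0.57 (permutation p = 0.00223 and 0.0004, adjusted 0.0334 and 0.0159), with 0.26 in F and 0.71 in M. Without the 2 samples farthest from the median these were 0.45, 0.52 and 0.47, and 0 of the 45 pairs then passed the adjustment.

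Other pairs did not pass by Pearson r. Dbp and Arntl had r = -0.23 (permutation p adjusted 0.488) and Dbp and Clock r = -0.41 (adjusted 0.0852, and 0.0443 by Spearman rho). Nr1d1, whose product represses Arntl, and Arntl had a positive r of 0.45 (adjusted 0.107). Nr1d1 and Nr1d2, a paralogous pair, had r = 0.62 (adjusted 0.0559, and 0.0416 by rho), and Nr1d1 and Ciart 0.64 (adjusted 0.0559). The pairs share libraries, depth and dissection.

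**Figure D3:**
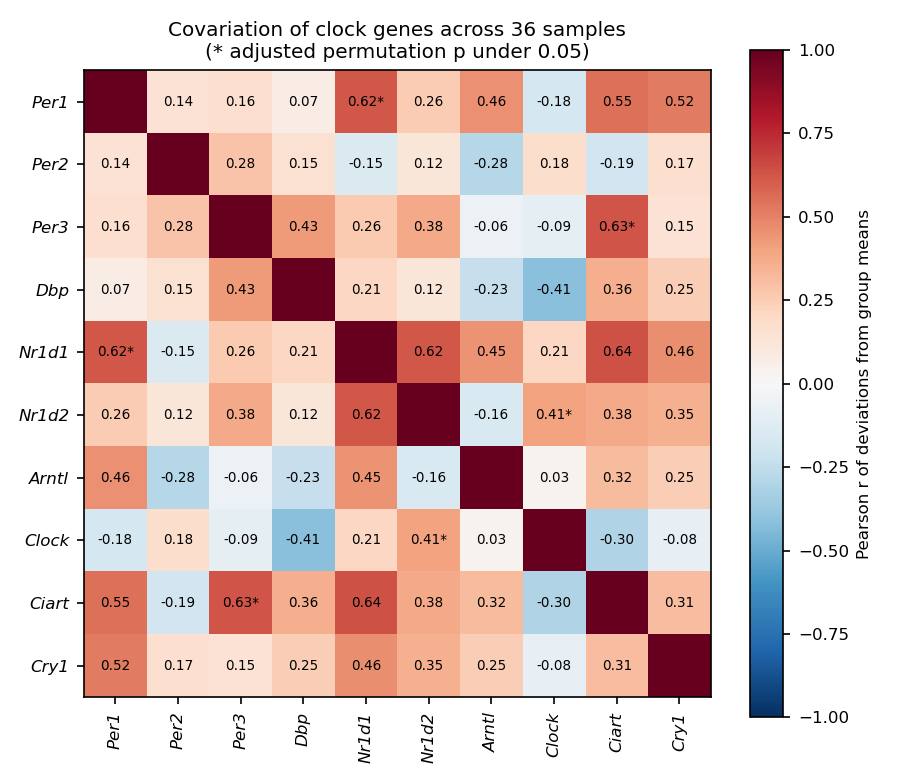
Pearson r (colour and number) between the 10 clock genes over deviations from the group mean of log2 CPM in 36 samples; an asterisk marks an adjusted permutation p under 0.05. The 3 marked pairs are Per1 with Nr1d1 (0.62), Per3 with Ciart (0.63) and Nr1d2 with Clock (0.41).

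Genes with the most similar pattern to 3 members were sought among 15410 genes with a mean of at least 1 CPM, by the same r over 36 samples. For Dbp they included Pms2 (0.68) and Zfp39 (0.68). For Per2 they included Zfp7 (0.68) and Hectd2 (0.64), and for Arntl they were Phf12 (0.76), Sh3rf2 (0.72) and Zfp523 (0.71). Members were left out of this search beforehand. These values are among the highest of many and carry no test.

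A list of 24 further clock genes (receptors, kinases, ubiquitin ligases, outputs) was measured in full. Under vehicle 1 rose in KO in the average, Bhlhe41, a repressor of the DEC family (0.22, SE 0.07, edgeR adjusted p = 0.0483), a call held in 6 of 16 fits without 1 sample (adjusted p up to 0.189). In F 1 fell, the ubiquitin ligase subunit Fbxw11 (-0.17, SE 0.05, adjusted p = 0.0386), a call held in 2 of 10 such fits (adjusted p up to 0.114). In M 0 were called (2 had an unadjusted p under 0.05, and DESeq2 called 0). Of all genes tested, 6.67% were called under vehicle in the average, 4.96% in F and 0.516% in M. Under CP2 3 rose and 2 fell in KO in the average, beside 11.6% of all genes called. Bhlhe40, another repressor of the DEC family, fell by 0.42 (SE 0.09, edgeR adjusted p = 0.00189). It had 94.0 ± 16.1 CPM in KO CP2 F and 85.0 ± 11.8 CPM in KO CP2 M against 124 ± 8.89 and 114 ± 15.2 CPM in WT (SD, n = 5 each). Bhlhe41 rose by 0.23 (adjusted p = 0.00792) and Nampt, an enzyme of NAD synthesis under clock control, by 0.18 (adjusted p = 0.0133). The list's medians in these contrasts were between -0.03 and 0.08, near those of all genes.

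Arntl2, the paralog of Arntl, differed most. Its level was 8.70 ± 1.13 CPM (SD, n = 3) in KO vehicle M. With CP2 it was 3.79 ± 0.877 CPM (SD, n = 5) in that letter. The values were 5.64 ± 1.91 and 5.68 ± 0.718 CPM (SD, n = 5 each) in the matching F groups. With CP2 Arntl2 fell by 1.201 in KO M (SE 0.19, edgeR adjusted p = 0.000385), against 0.01 (SE 0.17) in KO F. The KO M contrast called 5.1% of all genes. With the outside-gene read share added to the model it called 0 genes, so the Arntl2 call was lost. The F minus M difference of the CP2 effect on Arntl2 was 1.21 (SE 0.26, adjusted p = 0.0273), called in 12 of 18 fits without 1 sample. Without L266 and L291 that difference was 1.33 with an adjusted p of 0.0874, and with the outside-gene read share added to the model it was 0.96 (adjusted p = 0.112). Under CP2, Arntl2 was also lower in KO than in WT in M (-1.03, SE 0.17, adjusted p = 0.000105).

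Temperature-responsive genes were read beside the clock because body temperature is a cue that clocks follow. Cold-inducible RNA-binding proteins are also known to affect clock transcripts. The list was chosen with earlier results of these data known, so its calls are not an independent check. Of the 7 measured, 2 rose and 2 fell in KO under vehicle in the average, beside 6.67% of all genes called. Rbm3 and Cirbp, the cold-inducible pair, rose by 1.09 (SE 0.14, edgeR adjusted p = 2.44e-05) and 0.80 (SE 0.14, adjusted p = 0.000843). The heat-shock chaperones Hsph1 and Hsp90aa1 fell by 0.65 (SE 0.11, adjusted p = 0.000331) and 0.25 (SE 0.06, adjusted p = 0.00787). The rest of the list, Hspa1a, Hspa1b and Dnajb1, was not called in this average. The median log2 fold change of the 7 was -0.06 in the average, -0.28 in F and 0.08 in M. Of the 7, 3 were above 0 in the average, 3 in F and 4 in M, so the list did not move as 1. Rbm3 was at 123 ± 12.5 CPM in KO against 56.3 ± 15.9 CPM in WT in vehicle F (SD, n = 5 each), and at 111 ± 10.7 against 53.4 ± 6.005 CPM in vehicle M (SD, n = 3 each). KO and WT samples did not overlap for Rbm3, Cirbp or Hsph1 in either vehicle comparison. Within M alone 1 of the 7 was called, beside 0.516% of all genes. It was Rbm3 (1.06, adjusted p = 0.0176), a call held in 3 of 6 fits without 1 sample (adjusted p up to 0.194).

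Under CP2 the same pair rose in KO, Rbm3 by 0.98 (SE 0.12, edgeR adjusted p = 3.16e-06) and Cirbp by 0.89 (SE 0.12, adjusted p = 1.69e-05). Hsph1 fell by 0.57 (adjusted p = 7.23e-05) and Hsp90aa1 by 0.18 (adjusted p = 0.0168). The fifth called was Hspa1b at -0.55 (adjusted p = 0.0182), named after its value was seen. This contrast called 11.6% of all genes. For CP2 against vehicle 0 of 7 were called in KO or in WT, in the average, F or M. The shares of all genes called there were 0% to 5.1%. Of the 7, 0 to 2 had an unadjusted p under 0.05 and DESeq2 called 0. Rbm3 and Cirbp in the averages were called in each fit that left out 1 sample. In the plot of these genes Cirbp was apart between KO and WT in each of the 4 pairs of groups. Rbm3 and Hsph1 were apart in 3 pairs and overlapped in F under CP2, where 4 of 5 KO samples lay outside the WT range.

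**Figure D4:**
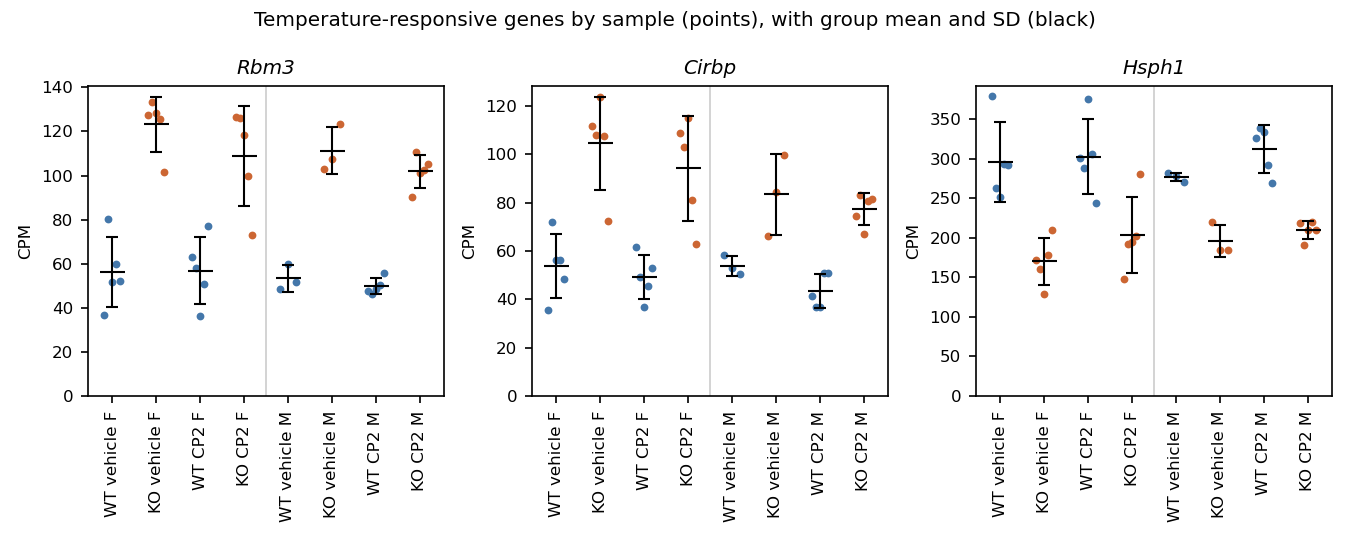
Level in CPM (vertical axis, from 0) of Rbm3, Cirbp and Hsph1 in every sample of the 8 groups; points are samples (blue WT, orange KO) and black bars the group mean and SD. Under vehicle every KO sample lies above every WT sample for Rbm3 and Cirbp and below for Hsph1.

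Per1 responds acutely to glucocorticoids and to neuronal activity, so genes of both kinds were listed. Of 13 glucocorticoid-responsive genes 0 were called in KO under vehicle in the average, beside 6.67% of all genes (3 at an unadjusted p under 0.05, 0 by DESeq2). Under CP2 2 fell in KO in the average, beside 11.6% of all genes called. Zbtb16 fell by 0.59 (SE 0.12, edgeR adjusted p = 0.00164) and Cdkn1a by 0.70 (SE 0.19, adjusted p = 0.0154). With CP2, Plin4 in KO fell by 1.52 in the average (SE 0.41, edgeR adjusted p = 0.0319). The call was lost without L266 and L291 (adjusted p = 0.0619) and held in 10 of 18 fits without 1 sample. That contrast called 3.91% of all genes, and 0 genes with the outside-gene read share added to the model. In M against F, Tsc22d3 fell by 0.23 (adjusted p = 0.0475) and Pdk4 by 0.22 (adjusted p = 0.0491), in a contrast that called 10.3% of all genes. Tsc22d3 was called in 18 of 36 fits without 1 sample (adjusted p up to 0.111) and Pdk4 in 17 of 36 (up to 0.135).

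Of 11 immediate early genes Fos, Fosb and Npas4 were called higher in KO vehicle F, beside 4.96% of all genes called (2.75, 2.61 and 3.03, edgeR adjusted p = 0.0415, 0.047 and 0.0388). Without L246 the values were -0.38, -0.62 and -0.45, none of them called, so these calls rest on that 1 library. Per1 in L246 was 141 CPM, the second highest of its group. Under CP2 4 of the 11 fell in KO in the average, beside 11.6% of all genes called. Egr1 fell by 1.26 (adjusted p = 0.0077), Arc by 1.62 (adjusted p = 0.0123), Egr2 by 2.26 (adjusted p = 0.0143) and Egr4 by 1.07 (adjusted p = 0.0471). The Egr4 call held in 5 of 20 fits without 1 sample (adjusted p up to 0.0904). In the same contrast Per1 had -0.35 (adjusted p = 0.122). In M against F, Fos fell by 1.41 (SE 0.43, adjusted p = 0.0328), or by 0.62 (adjusted p = 0.0499) without L246. With the title number as a covariate the direction turned (0.13, adjusted p = 0.95). The parts of depth, dissection and neuronal activity in the levels of the clock genes were not tested beyond the covariates above.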

How the data were processed

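PolyA RNA of mouse brain was sequenced in 36 samples (Trizol-based extraction and TruSeq libraries, per the labels' protocols). STAR, HTSeq and the build GRCm39 are named in the submitters' processing notes. Their versions and the strandedness are not given in the sources used here. The authors deposited raw counts per Ensembl gene, and 5 summary rows were left out (reads outside genes were 5.09% to 13.2% of all reads). GENCODE M21 gave symbols for 52073 of 56980 genes (91.4%) and merged exon lengths. Samples were grouped by the labels and title letters.

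Counts were tested with edgeR 4.0.16 in R 4.3.3 (TMM, filterByExpr, robust quasi-likelihood fit over 8 groups, 36 samples, 25601 genes, 16 contrasts). SE is the log2 fold change over the root of F. Log2 CPM for correlations used a prior count of 2. The functions were tested on simulated data. DESeq2 1.42.0, other scaling, no filter, covariates, fewer groups and leaving out samples were tried. The 66 replicate pairs differed beyond sampling noise (mean chi-square per gene 12.6 to 126).

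All 10 members were named. From each list up to 4 called genes per contrast with the smallest adjusted p were named. Members and lists were chosen with earlier results of these data known. A few genes that these rules name are not reported here.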

Additional observations from a re-analysis of the deposited data

Results flagged for a closer look

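In each of the 6 groups of 5 samples the highest and lowest value of every clock gene was compared with the rest by Dixon's ratio of gap to range. Of 60 such sets 5 had a sample far from the others. Chance alone would give about 1 in 20.

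The KO vehicle F sample L246 had the lowest Dbp of its group, 53.7 CPM against 67.5 to 73.1 CPM in the others, and is also the sample with 644 CPM of Fos. The WT vehicle F sample L252 had the lowest Dbp, 54.1 CPM against 85.1 to 87.7 CPM, and the highest Per1, 124 CPM against 73.6 to 84.5 CPM. Without L246 the KO against WT change of Dbp in the average was -0.33 (edgeR adjusted p = 0.0743). The WT CP2 M sample L267 had the lowest Nr1d1, 92.0 CPM against 107 to 112 CPM. The KO CP2 F sample L234 had the lowest Nr1d2, 81.7 CPM against 106 to 116 CPM. The reason for these values was not tested.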

How the results depend on the processing

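Counts of clock genes called moved by over 1.5 times, or from or to 0, under 23 of 132 alternatives, and 0 of the clock genes' changes reversed. For KO against WT under vehicle (3 in the average, 2 in F) the count was 1 without a low-count filter, 1 with the outside-gene read share in the model and 1 with only the groups compared, in both. With a hippocampal CA score as covariate it was 1 in F. Under CP2 in F (0) DESeq2 called 1. Under CP2 in M (2) the count was 1 with the title number as a covariate, 0 with the outside-gene read share, 1 without L266 and L291 (an alternative added after seeing the data) and 5 with only the groups compared. For CP2 in KO (0) it was 1 in the average with the title number, 2 with DESeq2 in the average and in M, and 1 in M with only the groups compared. The interaction (0) had 1 with the title number and 1 with DESeq2. M against F (1) had 0 with the title number. Of 3 correlated pairs, 7 were found with group means not removed, 0 in F alone, 1 in M alone and 0 with 2 farthest samples left out. Leaving out 1 sample gave 1 to 3 for KO against WT under vehicle in the average and in F, 2 to 5 under CP2 in the average, 0 to 1 in F and 1 to 2 in M, 0 to 2 for CP2 in KO in the average and in M, 0 to 1 for the interaction and 1 to 2 for M against F. Of the 24 further clock genes, DESeq2 called 4 against 1 under vehicle in the average, 2 against 1 in F, and 3 against 1 under CP2 in F. Outside these, Fos in M against F was 0.13 (edgeR adjusted p = 0.95) with the title number, and without L246 Fos, Fosb and Npas4 in KO vehicle F were -0.38, -0.62 and -0.45, against at most 3.11, 2.96 and 3.34 without any other sample. The cause was not tested. No paired analysis was possible because no replicate number is shared between groups. Without an hour of collection, level and phase of a rhythm cannot be told apart.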
